A study of Mus musculus with 8 samples.

Results

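The comparison described here is between VD3+TNFa and TNFa alone in dendritic cells of both genotypes, that is, the effect of vitamin D pretreatment on cells that then received TNFa. The arrays were selected by their titles: 2 titled VD3+TNFa and 2 titled TNFa, 1 of each per genotype, which makes 4 of the 8 arrays in the study. The study grew dendritic cells from bone marrow of 9-week-old male mice that were either VDRwt controls or VDRmut, whose vitamin D receptor lacks its DNA-binding domain. Progenitors were expanded with SCF, hyperIL-6, Flt-3L, long-range IGF-1, GM-CSF and dexamethasone, a glucocorticoid, and then differentiated in GM-CSF alone for 7 days. At that point VD3, the active hormone 1,25-dihydroxyvitamin D3, was given at 1e-06 M or withheld, and TNFa (50 ng/ml) followed after 30 min for 4 h in the wells that received it. RNA of each condition was measured on 1 Affymetrix MOE430A array, so the 2 genotypes serve as the only replicates of a treatment. Nothing in the labels ties an array to a culture or animal of its own, and a p-value here measures the spread between arrays and no more. In the main fit that spread is the disagreement of the genotypes across treatments. A change that depends on the receptor therefore enters the error, and calls favour changes shared by both genotypes.

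Immature dendritic cells take up antigen through lectins, Fc receptors and scavenger receptors. TNFa signals through its receptors to the transcription factor NF-kB and drives maturation: costimulatory molecules, cytokines such as interleukin-12 and the lymph node homing receptor CCR7 come up while uptake receptors go down. Vitamin D acts through the vitamin D receptor, which pairs with the retinoid X receptor on response elements in DNA, and it is known as a hormone that keeps dendritic cells immature.

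Signals are MAS5 intensities on a linear scale, changes are differences of log2 signals (VD3+TNFa minus TNFa), and an error given as ± is the limma standard error of a log2 change. Where signals are given in pairs, the VDRwt array comes first and the VDRmut array second. Present calls were made for 49.35% to 51.28% of probe sets on the 4 arrays. Dendritic cell markers were there: the integrin Itgax (CD11c) and the class II chains H2-Aa and Cd74 were Present on all 4, while the progenitor receptor Flt3 was Present on 3 of them. The 18S control, which detects ribosomal RNA, differed between the treatments compared: its 5′ probe set read 9028 and 6847 with TNFa alone against 224 and 58.2 with VD3+TNFa, and between 3.5 and 72.6 on the 4 arrays without TNFa. The 5′ to 3′ signal ratio of actin, a sign of RNA integrity, was 0.834 and 0.839 with TNFa and 0.781 and 0.449 with VD3+TNFa. The VDRwt arrays of the pair shared a scan day and differed in fluidics protocol; both fields are empty for VDRmut. With scan day as a block 750 probe sets were called in place of the 894 given next. That term is a genotype difference of its own in the arrays with TNFa. It cannot adjust VD3+TNFa against TNFa for scan day, since both VDRwt arrays of the pair share a day and the VDRmut days are not recorded. Leaving out both VDRmut arrays of low actin ratio leaves 1 VD3+TNFa array, that of VDRwt, and 1 residual degree of freedom. Such a fit is no check over both genotypes. In it genes described below lost their calls, among them Vdr, Kdm5a, Ccl5, Ccl17, Traf1, H2-DMa, Top2a, Uqcrc2, Flt3 and Epx. These are the ones among genes named by rule. Other list members described below, such as chemokines and sterol genes, lost theirs too. The part of the 18S signal and of the fluidics protocol in the results was not tested.

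In both genotypes the cells that had VD3 before TNFa held far less RNA for interleukin-12 p40, several costimulatory molecules and the migration receptor CCR7 than cells with TNFa alone. They held more RNA for several uptake receptors, glycolytic enzymes and enzymes of sterol synthesis. In most genes that differed, the TNFa arrays stood above or below all 6 other arrays, as shown after the gene groups. Of 12832 probe sets tested with limma over both genotypes, 894 passed a Benjamini-Hochberg adjusted p of 0.05 (6.97% called), 436 higher (3.4%) and 458 lower (3.57%) with VD3. Taking the brightest probe set of each gene, 551 of 7578 genes were called (7.27%): 263 higher (3.47%) and 288 lower (3.8%). Each of the 551 changed in 1 direction in both genotypes, and 353 of them exceeded 2-fold in each with Present calls on the brighter arrays. Across all tested genes the median log2 change was -0.022, against which the medians of gene lists below can be read. In the same fit, VD3 against untreated cells without TNFa gave 0 calls (0%), with 977 probe sets at an unadjusted p under 0.05 and a smallest adjusted p of 0.629.

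The number of calls depended on single arrays. Leaving out the TNFa array gave 141 in VDRwt and 656 in VDRmut, leaving out the VD3+TNFa array gave 188 and 104 in the same order, and raising signals under 50 to 50 (the floor of 50 below) gave 96. All 551 genes kept their sign in each of 8 fits that left out 1 array. This was nearly fixed beforehand: fits without an untreated or VD3 array leave the log2 change as it was, and called genes already had 1 direction in both pairs. Of the 551, 39 (24 higher, 15 lower) passed the threshold in all 8. Those 39 are called the array-robust genes below, and the set was defined after the values were seen. With the floor of 50, 17 of the 39 passed. Of those named below as array-robust, Bex1, Egln3, Mgl2, Fcgr1, Rnase2a, Slfn1 and Pfkfb3 did not. A call lost with this floor does not by itself mark a dim gene. Egln3 had no signal under 50 and kept its log2 change of 3.94. A called gene outside the 39 lost its call in at least 1 of the 8 fits.

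**Figure D1:**
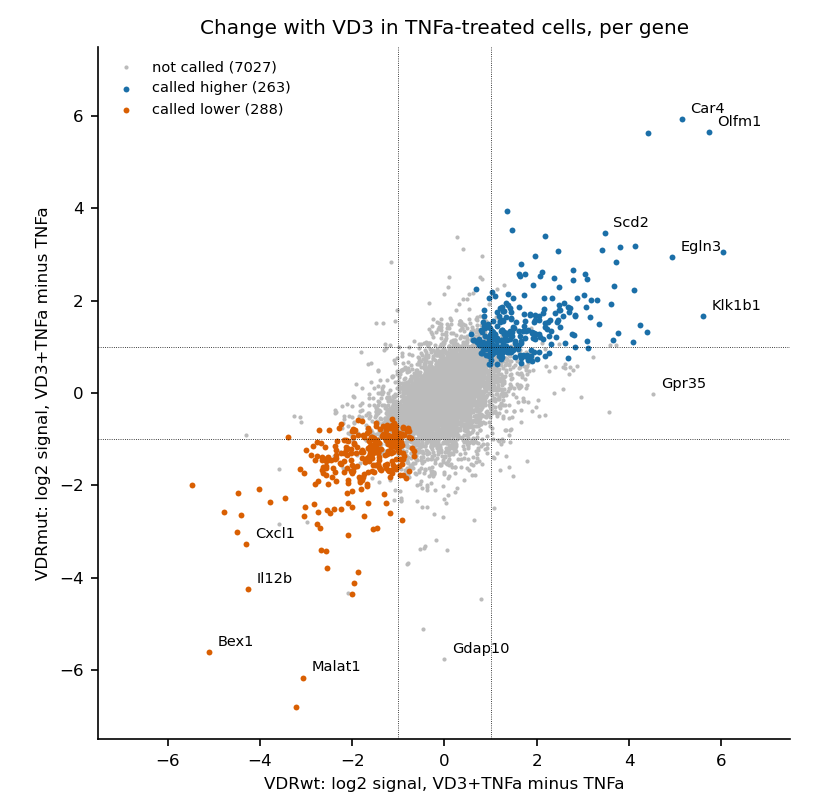
Change with VD3 in TNFa-treated cells for 7578 genes, as log2 signal of VD3+TNFa minus TNFa, in VDRwt (horizontal axis) and VDRmut (vertical axis). Each point is a gene, coloured where it was called higher (263) or lower (288) over both genotypes, and dotted lines mark 2-fold; the called genes lie at the upper right and lower left, with Gpr35 and Gdap10 as examples of genes past 2-fold in 1 genotype.

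The genes most raised by VD3 in TNFa-treated cells were Olfm1 and Car4. Olfm1, a secreted olfactomedin known from nervous tissue, read 8.1 (Absent) and 15 (Absent) with TNFa and 430.1 and 755 with VD3+TNFa. It was therefore at least 51.7-fold higher with VD3 (log2 5.69 ± 0.31, adjusted p = 8e-05), and no TNFa array came near a VD3+TNFa array. Here and below, "at least" marks genes that were not called Present on either array of the dimmer treatment. Such a size is computed against the higher of the gene's own signal and the array's lowest Present signal (3.1 to 5.9 on these arrays). It is thus an estimate and not a strict bound. Treatments are said not to overlap where both signals of a treatment lie above both signals of the other. Called genes were picked on these same arrays, so a lack of overlap in them is a description and adds no evidence. The share of all tested genes without overlap is not given here. Car4, a carbonic anhydrase anchored to the outer cell membrane, read 58.8 and 28.1 with TNFa and 2080.1 and 1711 with VD3+TNFa, a 46.4-fold difference (log2 5.54 ± 0.25, adjusted p = 5.36e-05) with no overlap. Both are array-robust.

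Among the most lowered were Bex1, Malat1, Il12b and Akap9. Bex1, a small adaptor protein first described in brain, fell from 837 and 244 to 24.4 and 5.0 (Absent) (40.9-fold lower; log2 -5.36 ± 0.50, adjusted p = 0.00133) and is array-robust. Il12b encodes p40, the chain shared by interleukin-12 and interleukin-23. Its signals of 2573 and 2273 with TNFa compared with 134 and 119 with VD3+TNFa, a 19.1-fold fall (log2 -4.26 ± 0.25, adjusted p = 9.96e-05) of the same size in both genotypes (-4.26 in VDRwt and -4.25 in VDRmut). Akap9, which anchors protein kinase A at the Golgi and centrosome, went from 98.6 and 66.9 to 10.6 (Absent) and 0.6 (Absent), at least 10.3-fold lower (log2 -5.01 ± 0.87, adjusted p = 0.0125). The log2 value of Akap9 rests on an Absent signal of 0.6, so its rank among the lowered genes is not measured. Akap9 was also low on the other VDRmut array of low actin ratio: the untreated array, with a ratio of 0.444, read 20.9 (Absent), and the VD3 array, with a ratio of 0.86, read 75.3. Its call was lost without the VDRwt TNFa (adjusted p = 0.0584), VDRmut TNFa (0.0725) or VDRmut VD3+TNFa array (0.0639).

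Promoters are shown for the 2 genes with the highest and the 2 with the lowest fitted log2 change, as the extremes of the comparison. Those of Il12b and of the chemokine Cxcl1 were added after their values were seen, as NF-kB-driven genes of dendritic cells. The sequences are from RefSeq (build GRCm38.p6), run from 250 bases before to 50 bases after the annotated start, and are written 5′ to 3′ on the gene's strand. Capitals mark matches to the NF-kB site, searched on both strands together with the DR3 vitamin D response element and the AP-1 site TGANTCA. Olfm1 has 2 annotated starts, of which the first is shown; the other held no match either.
Olfm1 (chr2:28192843-28193142, + strand): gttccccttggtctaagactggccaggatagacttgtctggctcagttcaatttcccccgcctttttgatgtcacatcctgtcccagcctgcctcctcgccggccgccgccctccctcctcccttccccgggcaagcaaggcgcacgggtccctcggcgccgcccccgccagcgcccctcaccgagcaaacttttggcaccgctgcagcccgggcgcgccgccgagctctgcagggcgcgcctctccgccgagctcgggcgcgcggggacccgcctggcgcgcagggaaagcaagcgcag
Car4 (chr11:84957504-84957803, + strand): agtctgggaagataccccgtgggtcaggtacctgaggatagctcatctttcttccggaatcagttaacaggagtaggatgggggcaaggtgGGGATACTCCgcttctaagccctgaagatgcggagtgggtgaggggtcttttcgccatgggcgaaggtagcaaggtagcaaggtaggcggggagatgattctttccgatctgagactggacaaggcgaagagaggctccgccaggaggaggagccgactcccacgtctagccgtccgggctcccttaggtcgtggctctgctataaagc
Bex1 (chrX:136215464-136215763, - strand): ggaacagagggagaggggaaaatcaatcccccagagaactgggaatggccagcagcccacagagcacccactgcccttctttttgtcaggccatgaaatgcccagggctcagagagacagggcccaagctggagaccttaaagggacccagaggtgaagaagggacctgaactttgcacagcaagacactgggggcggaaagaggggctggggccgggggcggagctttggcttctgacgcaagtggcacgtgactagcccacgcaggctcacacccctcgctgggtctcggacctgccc
Akap9 (chr5:3927936-3928235, + strand): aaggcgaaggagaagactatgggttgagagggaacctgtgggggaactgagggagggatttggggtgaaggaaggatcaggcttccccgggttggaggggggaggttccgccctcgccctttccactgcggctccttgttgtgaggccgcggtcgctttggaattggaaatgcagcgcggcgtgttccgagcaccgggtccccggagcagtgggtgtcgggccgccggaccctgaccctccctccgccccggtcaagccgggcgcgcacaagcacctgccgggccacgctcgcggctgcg
Il12b (chr11:44399813-44400112, + strand): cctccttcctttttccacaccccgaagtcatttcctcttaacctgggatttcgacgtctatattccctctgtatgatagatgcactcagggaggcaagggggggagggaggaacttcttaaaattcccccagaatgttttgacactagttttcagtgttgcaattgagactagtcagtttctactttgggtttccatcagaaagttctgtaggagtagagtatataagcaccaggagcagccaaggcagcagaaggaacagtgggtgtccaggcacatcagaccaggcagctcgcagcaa
Cxcl1 (chr5:90890995-90891294, + strand): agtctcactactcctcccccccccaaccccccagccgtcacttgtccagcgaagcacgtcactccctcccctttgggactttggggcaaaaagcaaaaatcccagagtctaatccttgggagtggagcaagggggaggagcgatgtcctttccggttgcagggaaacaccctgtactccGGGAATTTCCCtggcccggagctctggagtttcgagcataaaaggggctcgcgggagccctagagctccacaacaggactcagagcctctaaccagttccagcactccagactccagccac

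Car4 held 1 NF-kB match, which begins at -159 relative to the start, and Cxcl1 held 2 overlapping ones at -71 and -70. These windows held no DR3 or AP-1 match. Among all 32851 promoters of the same table, 4.51% held an NF-kB match, 7.81% an AP-1 match and 0.0396% (13 promoters) a DR3 match. A match describes letters in the window and is no evidence of binding.

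The 15 most raised and 15 most lowered genes described here had a Present call on the brighter array of both genotypes. Among the others of the 15 most raised, array-robust ones included several enzymes and surface proteins. Egln3, the prolyl hydroxylase that hypoxia induces, read 94.2 and 161 with TNFa and 2879.7 and 1238 with VD3+TNFa (15.3-fold; log2 3.94 ± 0.46, adjusted p = 0.00383). The desaturase Scd2, which makes monounsaturated fatty acids, moved by the same amount in both genotypes (3.47 in VDRwt and 3.47 in VDRmut) from 390.1 and 483 to 4326 and 5350.0 (log2 3.47 ± 0.26, adjusted p = 0.000638). E-cadherin (Cdh1), an adhesion protein of immature dendritic cells and alternatively activated macrophages, went from 60.3 and 68.1 to 639 and 585 (9.54-fold; log2 3.25 ± 0.26, adjusted p = 0.000777). In each of these 3 genes both VD3+TNFa signals stood above both TNFa signals. Rnase2a, of the eosinophil-associated ribonucleases whose close relatives may share its probes, differed between genotypes in level: 5.7 (Absent) and 29.5 (Absent) with TNFa and 121 and 1457 with VD3+TNFa, at least 32.4-fold higher (log2 5.02 ± 0.35, adjusted p = 0.000398). Slfn1, of the schlafen family, and Phlda1 were 9.01-fold and 6.94-fold higher. Ltb4r1, the leukotriene B4 receptor, was at least 23.4-fold higher (log2 4.55 ± 0.64, adjusted p = 0.00662), and its call was lost without the VDRwt VD3+TNFa array (adjusted p = 0.0675). The neuropeptide galanin (Gal), the glycogen synthase Gys1, the kallikrein Klk1b1 and the adenylosuccinate synthase Adssl1 completed the 15 with Aldoc and Mgl2, described with their lists. Each of these 4 failed in at least 3 of the 8 fits.

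Of the other genes of the 15 most lowered, several were high with TNFa alone and not Present with VD3. Cxcl1, a chemokine that attracts neutrophils, read 408 and 192 with TNFa and 20.9 (Absent) and 19.9 (Absent) with VD3+TNFa, at least 13.7-fold lower (log2 -3.78 ± 0.51, adjusted p = 0.00586); the call was lost without the VDRwt TNFa array (adjusted p = 0.106). The ubiquitin ligase Fbxo32 fell at least 8.41-fold and the scaffold protein Grasp at least 12.8-fold. Mucl1, a mucin-like secreted protein, fell 13.5-fold from 2944 and 879 to 131 and 108, with no overlap of the treatments (log2 -3.76 ± 0.48, adjusted p = 0.00498), and lost its call without the VDRmut VD3+TNFa array (adjusted p = 0.0574). Malat1, a long nuclear RNA, the histone demethylase Kdm5a and Resf1 were lower by log2 -4.61 ± 0.94, adjusted p = 0.0226, log2 -3.18 ± 0.80, adjusted p = 0.0482 and log2 -3.16 ± 0.65, adjusted p = 0.023. Like Akap9, these 3 were also low on the untreated VDRmut array of low actin ratio, at 32.4 (Absent), 14.3 (Absent) and 47.5. Leaving out both VDRmut arrays of low actin ratio keeps the VDRwt VD3+TNFa array alone on its side. The log2 changes were then -2.99 for Malat1, -2.42 for Resf1, -1.63 for Kdm5a, which lost its call, and -3.05 for Akap9. In the VDRwt pair they were -3.06, -2.54, -2.01 and -3.22 in that order, so these values are no check over both genotypes. Pnkd, Lsm14b, Ccnb1ip1, A630072M18Rik and 2610528A11Rik fell by 3.05 to 3.73 on the log2 scale. Cxcl1, Mucl1 and Pnkd failed in 1 of the 8 fits, and each of the other genes of this paragraph in at least 3.

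**Figure D2:**
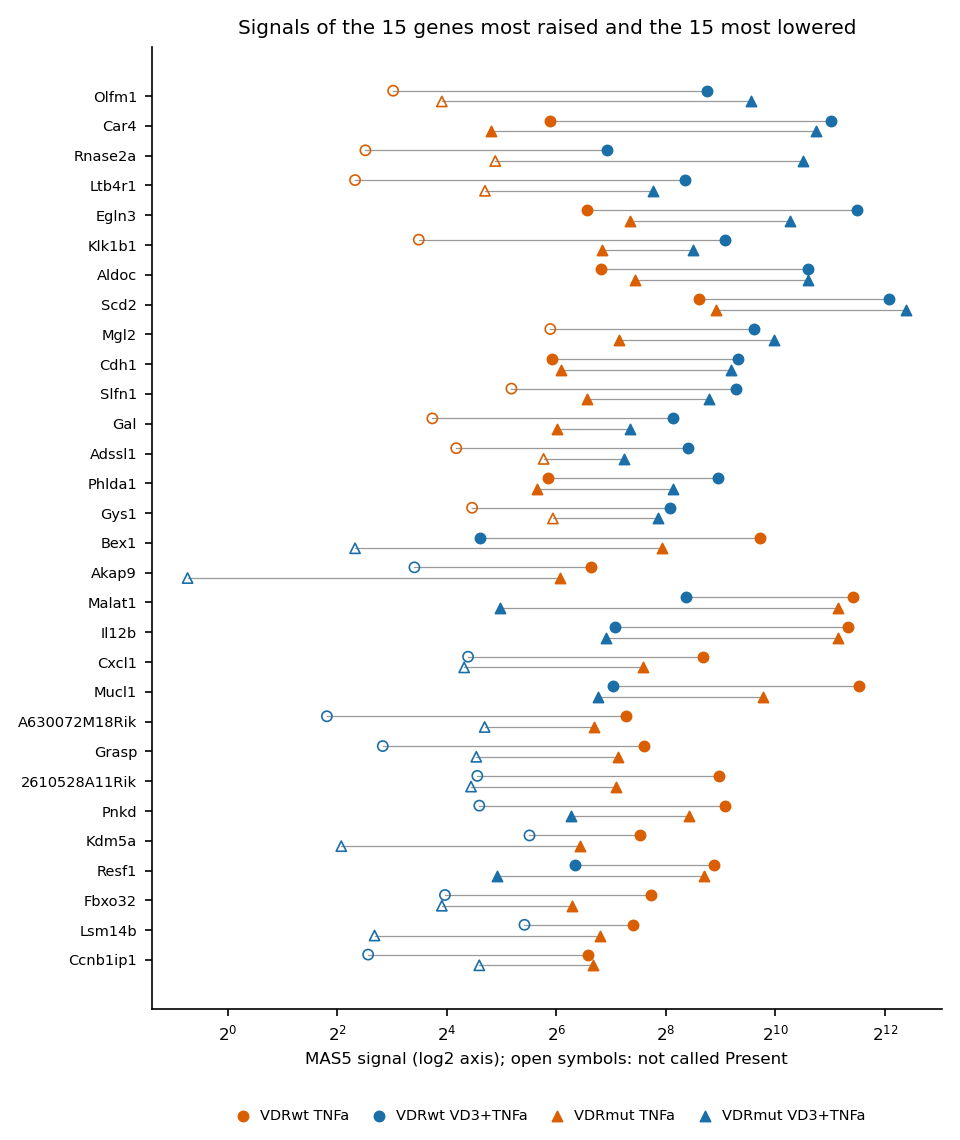
MAS5 signal (log2 axis) on the 4 arrays for the 15 genes with the highest and the 15 with the lowest log2 change among called genes with a Present call on the brighter array of both genotypes (a condition that leaves out Arg1). Circles are VDRwt and triangles VDRmut, orange is TNFa and blue VD3+TNFa, open symbols were not called Present, and lines join the arrays of a genotype; in each gene the blue symbol lies on the same side of the orange one in both genotypes.

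The receptor for the hormone and its known targets gave few calls. The Vdr probe set read 33.2 (Absent) and 6.3 (Absent) with TNFa and 104 and 43.7 (Absent) with VD3+TNFa, so it was Present on 1 of the 4 arrays. It was called higher, at least 4.66-fold (log2 2.22 ± 0.47, adjusted p = 0.0257), with both VD3+TNFa signals above both TNFa signals. Vdr lost its call without any one of the 4 arrays (adjusted p between 0.0718 and 0.217) and with the floor of 50 (0.483). Whether it reads the deleted domain is not given in the sources used here. Cyp24a1, the enzyme that inactivates VD3 and its classical target, read 36.9 (Absent) and 19.7 (Absent) with TNFa and 59.5 and 7.0 (Absent) with VD3+TNFa, Present on the VDRwt VD3+TNFa array alone. Its change was not called (log2 -0.40 ± 1.07, adjusted p = 0.869). Without TNFa it read 2.2 (Absent) and 11.8 (Absent) untreated and 80.3 and 28.2 (Absent) with VD3, so it was Present on both VDRwt arrays that had VD3 and on no VDRmut array. Of the 11 tested members of the vitamin D response list, Vdr was the only one called; the list's median log2 change was 0.28 over both genotypes, 0.81 in VDRwt and -0.30 in VDRmut. Among its uncalled members the growth factor Hbegf read 35.1 (Absent) and 29.0 (Absent) with TNFa and 273 and 27.2 (Absent) with VD3+TNFa (adjusted p = 0.221), and the gluconeogenic enzyme Fbp1 45.1 (Absent) and 96.9 with TNFa, 139.5 and 155 with VD3+TNFa (0.0667). The coreceptor Cd14 and the cell cycle inhibitor Cdkn1a, both induced by VD3 in other cells, had changes of log2 0.26 ± 0.33, adjusted p = 0.705 and log2 0.28 ± 0.26, adjusted p = 0.583.

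TNF receptor and NF-kB genes were called in part, against 7.27% of all genes. Among TNF receptors and adaptors 0 of 13 members were called higher and 2 lower, the adaptor Traf1 (2.16-fold; log2 -1.11 ± 0.24, adjusted p = 0.0293) and the kinase Ikbkb (2.13-fold), which phosphorylates the NF-kB inhibitors. The list's median log2 change was -0.42. The NF-kB list (median -0.49) had 1 of 24 members higher, the survival factor Ier3, and 5 lower: the adhesion molecule Vcam1 (3.83-fold), the ubiquitin ligase Birc2 (3.62-fold), Gadd45b (2.68-fold), the subunit Relb (2.37-fold) and Traf1. Birc2 read 1984 and 1805 with TNFa and 489 and 558 with VD3+TNFa, without overlap (log2 -1.86 ± 0.24, adjusted p = 0.00508). The other members of this list were not called. Of all 24 members, 17 were lower in both genotypes and 3 higher in both. Il12b and Cxcl1, named above as NF-kB-driven, lie outside the list and were called lower. Of its uncalled members, 2 are given here. Nfkbiz, an inducible IkB protein, read 399.7 and 387 with TNFa and 408 and 320.4 with VD3+TNFa, against 103 and 79.1 on the untreated arrays (log2 -0.12 ± 0.24, adjusted p = 0.816 for VD3). The deubiquitinase Tnfaip3 (A20) read 397 and 271 with TNFa and 327 and 302 with VD3+TNFa, against 108 and 70.7 untreated (log2 -0.06 ± 0.25, adjusted p = 0.917). These 2 genes, chosen after their values were seen, were thus well above the untreated arrays on all 4 arrays that had TNFa. Leaving out either of the VDRwt arrays turned the 5 lower NF-kB calls into 1, and leaving out VDRmut VD3+TNFa or using the floor of 50 turned them into 0. Each of these 4 settings left 0 of the 2 TNF receptor calls and lost Ier3.

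Costimulation and maturation genes were the list with most members lower. Of 23 tested, 10 were called lower and 1 higher, with a median log2 change of -0.97 (-1.23 in VDRwt, -0.71 in VDRmut). Cd40, the receptor for T cell help, read 1766 and 1066 with TNFa and 202 and 339 with VD3+TNFa (5.24-fold lower; log2 -2.39 ± 0.40, adjusted p = 0.0104). Cd83, a surface marker of mature dendritic cells, read 5482 and 4619 with TNFa and 927 and 1488 with VD3+TNFa (4.28-fold; log2 -2.10 ± 0.32, adjusted p = 0.00788). Both genes had no overlap between treatments, and both VDRwt falls were the larger. Net1 (7.03-fold), Cd70 (4.37-fold), a ligand that costimulates T cells, the granzyme B inhibitor Serpinb9 (4.36-fold), Cd200 (4.15-fold), Ccr7, Relb, Marcks (2.19-fold) and Traf1 were the other 8 that fell, and Cish, a cytokine-induced signalling inhibitor, was the one that rose (2.95-fold). The B7 ligand Cd86 read 2173 and 1174 with TNFa and 509 and 718 with VD3+TNFa with adjusted p = 0.0569, and Cd80 318 and 256 with TNFa, 244 and 229 with VD3+TNFa (0.67). The actin bundler Fscn1 (7416 and 7468 with TNFa, 4026 and 6426 with VD3+TNFa) and the adhesion molecule Icam1 (2058 and 2226 with TNFa, 1671 and 2147 with VD3+TNFa) were not called. Leaving out VDRwt TNFa reduced the 10 to 0, VDRwt VD3+TNFa to 1 and VDRmut VD3+TNFa to 2, and the floor of 50 reduced them to 0; Cish was lost each time.

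Cytokines moved in both directions. Of 15 tested members of the interleukin-12 and inflammatory cytokine list, 5 fell and 2 rose (median -0.75). Besides Il12b these were Igf1, a growth factor that read 1384 and 2071 with TNFa and 236 and 357 with VD3+TNFa (5.83-fold; log2 -2.54 ± 0.22, adjusted p = 0.000941), and 3 T cell-directed ligands: Tnfsf4, the OX40 ligand (1384 and 896 with TNFa, 168 and 269 with VD3+TNFa; 5.24-fold), Il15 (2.87-fold) and Tnfsf9, the 4-1BB ligand (2.21-fold). Igf1 did not overlap between treatments and is array-robust. The 2 members that rose were the interleukin-1 receptor antagonist Il1rn from 747 and 1420.4 to 3481 and 3695 (log2 1.80 ± 0.28, adjusted p = 0.00846) and Il1a from 245 and 296 to 915 and 477 (log2 1.30 ± 0.32, adjusted p = 0.0455). Both were higher on the VD3+TNFa arrays than on the TNFa arrays, without overlap. The pyrogen Il1b (1639 and 3391 with TNFa, 4316 and 3674 with VD3+TNFa; adjusted p = 0.303), Il6 (303 and 148 with TNFa, 130.4 and 59.0 with VD3+TNFa; 0.169), the interleukin-27 chain Ebi3 (1011 and 737 with TNFa, 459.8 and 564 with VD3+TNFa; 0.0941), Tnf (280.1 and 531 with TNFa, 198 and 267 with VD3+TNFa; 0.561) and Il10 (28.6 and 36.2 with TNFa, 27.9 and 23.4 (Absent) with VD3+TNFa; 0.715) were not called. The 5 falls numbered 3 when VDRwt TNFa or VDRmut VD3+TNFa was left out and 2 when VDRwt VD3+TNFa was left out or the floor of 50 used. The 2 rises were lost in each of those 4 settings and were 4 with VDRmut TNFa left out.

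Chemokines divided in the same way. Of 13 tested, 3 fell and 2 rose (median 0.35): Cxcl1, the T cell-attracting Ccl5 (6052 and 6752 with TNFa, 2776 and 2298 with VD3+TNFa; log2 -1.34 ± 0.22, adjusted p = 0.00944) and Ccl22 (2.14-fold) were lower, and Ccl3 (323 and 549.9 with TNFa, 816 and 1109 with VD3+TNFa; log2 1.17 ± 0.21, adjusted p = 0.0139) and Ccl17 (1.91-fold), which binds CCR4 as Ccl22 does, were higher. Ccl5 and Ccl3 had no overlap between treatments. Cxcl2, a neutrophil chemokine like Cxcl1, read 1018 and 1670.2 with TNFa and 1734 and 1144 with VD3+TNFa, against 266 and 203 untreated, and was not called (log2 0.11 ± 0.34, adjusted p = 0.888). Among 10 migration genes, the lymph node homing receptor Ccr7 (4180.2 and 3192 with TNFa, 599 and 1162 with VD3+TNFa; log2 -2.13 ± 0.30, adjusted p = 0.00674) and the bone marrow homing receptor Cxcr4 (1557 and 1087 with TNFa, 449.7 and 301 with VD3+TNFa; log2 -1.82 ± 0.24, adjusted p = 0.00511) fell, while the inflammatory receptors Ccr1 (2.53-fold), Ccr2 (89.2 and 239 with TNFa, 636 and 769 with VD3+TNFa; log2 2.26 ± 0.39, adjusted p = 0.0125) and Ltb4r1 rose. In Ccr7, Cxcr4 and Ccr2 the treatments did not overlap. With VDRwt TNFa left out or the floor of 50 no chemokine was called, and with either VD3+TNFa array left out 1 was lower and 0 higher. For migration genes, leaving out VDRwt TNFa or VDRmut VD3+TNFa gave 1 call in each direction, leaving out VDRwt VD3+TNFa gave 1 lower and 0 higher, and the floor gave 1 higher and 0 lower. Ccr7 lost its call without the VDRwt TNFa (adjusted p = 0.0533) or VDRwt VD3+TNFa array (0.0689).

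Receptors for uptake and innate recognition were called in 1 direction. Of 27 tested, 11 rose and 0 fell (median 0.68, with 1.02 in VDRwt and 0.37 in VDRmut). Mgl2, a galactose-binding lectin, read 59.2 (Absent) and 141 with TNFa and 782 and 1011 with VD3+TNFa (9.74-fold; log2 3.28 ± 0.31, adjusted p = 0.00135), and its relative Clec10a was at least 5.96-fold higher. The high-affinity IgG receptor Fcgr1 read 101 and 175 with TNFa and 559 and 653 with VD3+TNFa (log2 2.19 ± 0.24, adjusted p = 0.00312), and Itgax 999 and 1168 with TNFa, 3354 and 3453 with VD3+TNFa (log2 1.66 ± 0.23, adjusted p = 0.00618). All 4 genes kept the treatments apart, and Mgl2 and Fcgr1 are array-robust. The other 7 were Ltb4r1, the integrin Itgam (5.29-fold, 3.66 in VDRwt and 1.15 in VDRmut on the log2 scale), the lectin Clec4a2 (3.13-fold), the endotoxin receptor Tlr4 (3.12-fold), the scavenger receptor Lrp1 (2.7-fold), Fcgr3 (2.47-fold) and the mannose receptor Mrc1 (2.3-fold). Such calls numbered 4 when either VDRwt array was left out, 6 when VDRmut VD3+TNFa was, and 2 with the floor of 50. Beside them 6 of 11 tested neutrophil markers were called higher, as given below; their part in the result was not tested.

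Class II presentation did not move as a block. Of 10 members 2 rose, the thiol reductase Ifi30 (564 and 427 with TNFa, 1276 and 1354 with VD3+TNFa; log2 1.42 ± 0.22, adjusted p = 0.00812) and H2-DMa, a peptide exchange chain (2.07-fold), while 8 of the 10 were lower in both genotypes without passing (list median -0.47). H2-Eb1 was the nearest of these (7414 and 8035 with TNFa, 4533 and 4919.6 with VD3+TNFa; adjusted p = 0.064), and the invariant chain Cd74 was not called either (10019 and 11371 with TNFa, 6713 and 9027 with VD3+TNFa; 0.289). Both calls were lost with either VD3+TNFa array left out and with the floor of 50, and 1 of them with VDRwt TNFa left out.

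Glycolysis had the highest share of members raised among the 20 pathway lists. Of 21 tested members of the glycolysis and hypoxia list, 11 rose and 1 fell, with a median log2 change of 1.04 (1.45 in VDRwt, 0.87 in VDRmut). Aldoc, an aldolase, read 112 and 172 with TNFa and 1554 and 1549.6 with VD3+TNFa (11.2-fold; log2 3.48 ± 0.29, adjusted p = 0.000794) and is array-robust. Tpi1, triose phosphate isomerase, read 899 and 1145 with TNFa and 3732 and 3421 with VD3+TNFa (log2 1.82 ± 0.22, adjusted p = 0.00445). Both were higher with VD3 without overlap, as were Egln3, the mitophagy receptor Bnip3 (5.31-fold), the phosphofructokinase Pfkp (3.03-fold), the pyruvate kinase Pkm (3.72-fold), the glucose transporter Slc2a1 (3.18-fold), Pgam1 (2.78-fold), the lactate dehydrogenase Ldha (2.76-fold), the hexokinase Hk1 (2.06-fold) and the angiogenic factor Vegfa (at least 5.77-fold). Pfkfb3, which makes the activator of phosphofructokinase, ran the other way, from 1544 and 948 to 222 and 240.0 (5.24-fold; log2 -2.39 ± 0.30, adjusted p = 0.0045), and is array-robust. Rises numbered 4 with either VDRwt array left out, 2 with VDRmut VD3+TNFa left out and 1 with the floor of 50, where the Pfkfb3 call was lost.

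Of 23 tested genes of sterol and fatty acid metabolism 10 rose and 0 fell. The median log2 change was 0.89, with 0.67 in VDRwt and 1.34 in VDRmut, and 2 members were lower in both genotypes without passing. Fdps, farnesyl diphosphate synthase, read 108 and 93.4 with TNFa and 421 and 734 with VD3+TNFa (5.55-fold; log2 2.47 ± 0.27, adjusted p = 0.00311), and the squalene epoxidase Sqle 168 and 152 with TNFa, 639 and 771 with VD3+TNFa (log2 2.14 ± 0.27, adjusted p = 0.0045). The treatments did not overlap in either gene. Scd2, Hmgcs1 (2.8-fold), which opens the mevalonate pathway, Fdft1 (3.82-fold), Sc5d (3.11-fold), Cyp51 (2.77-fold), Acly (2.42-fold), Fasn (at least 6.31-fold) and Dhcr7 (at least 3.36-fold; Present on 1 of its 2 VD3+TNFa arrays) were the other 8. Calls numbered 5 when VDRwt VD3+TNFa was left out, 2 when VDRmut VD3+TNFa was, and 3 with the floor of 50.

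Genes of alternative activation overlapped these lists. Of 13, 6 rose and 1 fell (median 1.13): Arg1, Mgl2, Clec10a, Cdh1, Mrc1 and the transglutaminase Tgm2 (2.19-fold) were higher and Igf1 lower. Arg1, arginase 1, read 27.5 (Absent) and 9.4 (Absent) with TNFa and 484 and 85.3 (Absent) with VD3+TNFa, at least 12.6-fold higher (log2 3.66 ± 0.38, adjusted p = 0.00253), with a Present call on the VDRwt VD3+TNFa array alone. The lectin-like Chil3 (3785 and 7770.0 with TNFa, 5809.6 and 6969 with VD3+TNFa; adjusted p = 0.721) and Retnla (43.1 (Absent) and 69.6 (Marginal) with TNFa, 80.0 (Absent) and 123 with VD3+TNFa; 0.101), other markers of that state, were not called. Rises numbered 3 with VDRmut VD3+TNFa left out or the floor of 50, and 4 with either VDRwt array left out.

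**Figure D3:**
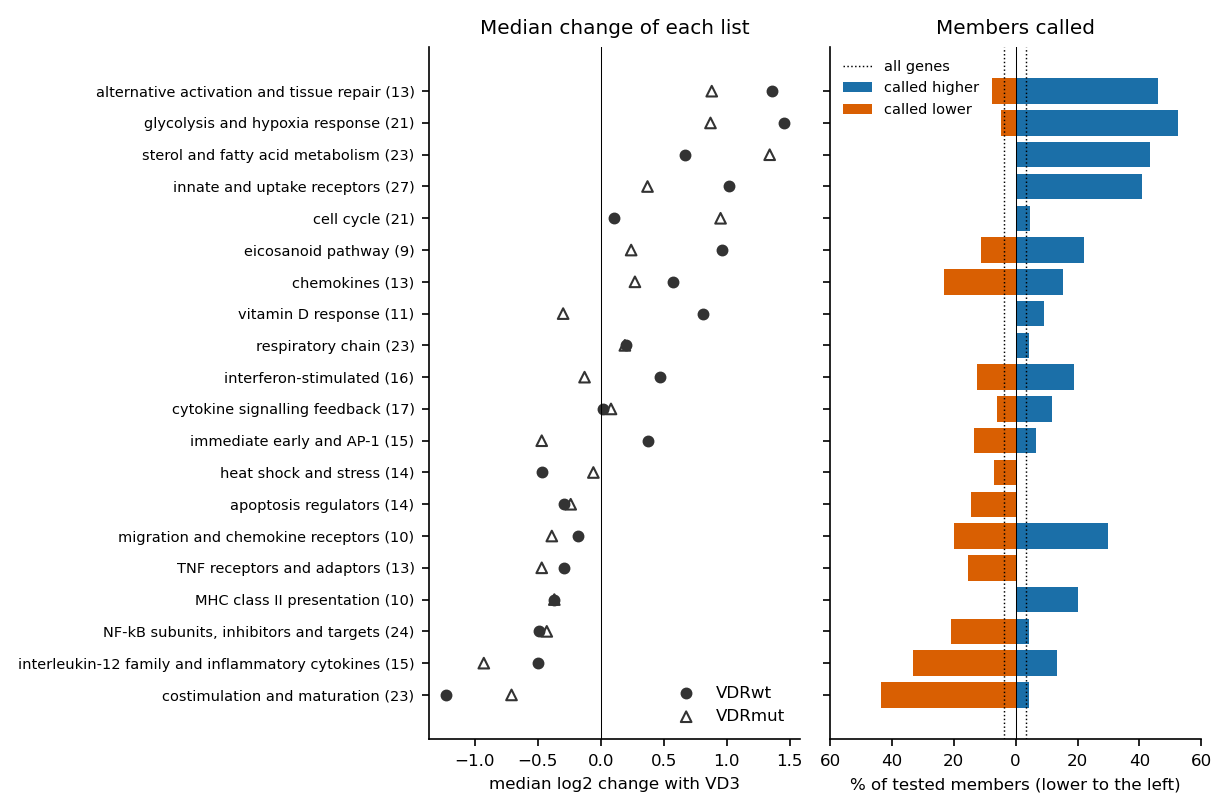
Left, the median log2 change with VD3 of the tested members of each of 20 gene lists, in VDRwt (filled circles) and VDRmut (open triangles), with the number tested in brackets. Right, the percent of those members called higher (blue, to the right) or lower (orange, to the left); dotted lines mark 3.47% and 3.8%, the shares of all genes, and the longest bars are glycolysis to the right (11 of 21) and costimulation to the left (10 of 23).

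The other groups gave 1 to 5 calls each, to be read against the 7.27% of all genes called. In the eicosanoid pathway (9 tested, median 0.55) Ltb4r1 and the leukotriene A4 hydrolase Lta4h (496 and 639 with TNFa, 1271 and 1588 with VD3+TNFa; log2 1.34 ± 0.20, adjusted p = 0.00776) rose and the leukotriene C4 synthase Ltc4s (982 and 709 with TNFa, 205 and 246 (Absent) with VD3+TNFa; log2 -1.89 ± 0.24, adjusted p = 0.00501) fell. Lta4h and Ltc4s draw on the same intermediate, and both kept the treatments apart. In cytokine feedback (17 tested, median 0.12) the signalling suppressors Socs3 (459 and 841 with TNFa, 2014 and 1905 with VD3+TNFa; log2 1.66 ± 0.33, adjusted p = 0.0206) and Cish rose and Stat4, the interleukin-12 signal transducer, fell (4.48-fold). Among 15 immediate early genes (median -0.07) Myc rose at least 4.46-fold, and the phosphatase Dusp1 (2.64-fold) and the RNA decay factor Zfp36 (2.43-fold) fell. Interferon-stimulated genes had no common direction: of 16 (median 0.24), Irf7 (2.77-fold), Oasl2 (2.59-fold) and Oas3 rose, Oas3 with no Present call on the 4 arrays, and Usp18 (2.89-fold) and Mx1 (2.35-fold) fell. Of 14 apoptosis regulators (median -0.22) the BH3-only protein Bcl2l11 (2.04-fold) and Birc2 fell. Heat shock genes (14, median -0.18) had the chaperone Hspa1b lower (3.95-fold), and the respiratory chain (23, median 0.24) had Uqcrc2 higher (1.9-fold). Cell cycle genes had a median of 0.57 (0.10 in VDRwt, 0.95 in VDRmut) with 1 of 21 called, the topoisomerase Top2a (126 and 195 with TNFa, 245 and 809.8 with VD3+TNFa; log2 1.51 ± 0.31, adjusted p = 0.0222). With VDRwt TNFa left out, the calls that stayed in these 8 lists were Ltb4r1, Birc2 and Myc. With VDRmut VD3+TNFa left out they were Ltb4r1 and Ltc4s, and with VDRwt VD3+TNFa left out Ltc4s, Birc2, Oas3 and Top2a.

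Markers of other cell types moved as well. Of 11 tested neutrophil markers 6 were called higher and 0 lower (median 0.96): Cd177, Lcn2, Ltf, S100a9, Mmp8 and Ngp. Their summed signal was 3671 and 13454 with TNFa and 10796 and 20469 with VD3+TNFa, against 10745 and 31834 in untreated cells, so it was lowest with TNFa alone in each genotype. The granule protein lactoferrin (Ltf) read 51.8 (Absent) and 229 with TNFa and 168 and 582 with VD3+TNFa (log2 1.52 ± 0.27, adjusted p = 0.0128), so each genotype rose but the VDRmut TNFa signal lay above the VDRwt VD3+TNFa one. The progenitor granule enzyme Mpo read 166 and 176 with TNFa and 119 (Absent) and 154 with VD3+TNFa and was not called. The neutrophil surface protein Cd177 was at least 5.23-fold higher (log2 2.39 ± 0.27, adjusted p = 0.00355). In a bulk sample fewer cells of a type and less RNA per cell cannot be told apart, and the part of these cells in the lists above was not tested. Of 5 natural killer markers 2 fell, Klrd1 (at least 6.35-fold) and the activating receptor Klrk1 (4.35-fold), with summed signals of 1247 and 730.3 with TNFa and 343 and 313 with VD3+TNFa. Of 4 mast cell markers the protease Cpa3 fell (3.45-fold), with sums of 1487 and 965 with TNFa and 530.1 and 623 with VD3+TNFa, and of 2 eosinophil markers the peroxidase Epx rose (2.32-fold). Among 12 dendritic cell markers Itgax rose and Ccr7, Irf8 (2.91-fold) and Flt3 (2.52-fold) fell (median -0.48, sums of 28124 and 28938 with TNFa and 20724 and 24044 with VD3+TNFa). Among 9 macrophage markers Fcgr1 rose and Apoe, a lipid carrier, fell from 1646 and 2745 to 383 and 326 (6.02-fold; log2 -2.59 ± 0.26, adjusted p = 0.00201), and the sums were 10782 and 17381 with TNFa and 14160.1 and 15667 with VD3+TNFa. B cell (2), T cell (2), erythroid (1) and plasmacytoid dendritic cell markers (3 tested) gave 0 calls, with summed signals of at most 118 for the B cell and 91.4 for the T cell genes on the 4 arrays. Neutrophil calls fell from 6 to 1 when either VDRwt array was left out, to 2 when VDRmut VD3+TNFa was, and to 0 with the floor of 50. Those of natural killer, mast and dendritic cells went to 0 with VDRwt TNFa left out.

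Set beside the arrays without TNFa, the called genes were mostly those on which the TNFa arrays stood apart. In 237 of the 263 genes called higher with VD3 (90.1%) both TNFa signals lay below all other 6 arrays, and in 263 of the 288 called lower (91.3%) they lay above them. The VD3+TNFa pair lay above the other 6 in 48 of the 263 (18.3%) and below them in 56 of the 288 (19.4%). Over all 7578 tested genes the TNFa pair stood apart in 28.8% and the VD3+TNFa pair in 11.4%. Both shares among called genes draw on the arrays that made the calls and are a description. Whether the TNFa of the label was equally active in the cells given VD3 was not measured apart from RNA, so each VD3 effect here is a difference between arrays as labelled. Of genes picked here after their values were seen, some differed from untreated on both VD3+TNFa arrays and some did not. Nfkbiz, Tnfaip3 and Cxcl2, given above, were higher than untreated on both. Il12b read 78.2 and 104 on the untreated arrays, close to its VD3+TNFa signals, and Car4 read 2168 and 1391. Genes on which VD3+TNFa itself stood apart, chosen after their values were seen, included the sterol oxidase Msmo1, which read 614 and 1045 there, 143 and 170.1 with TNFa and 310 to 600.3 without TNFa, and the uridine phosphorylase Upp1 (836 and 780 there, 84.8 and 194 with TNFa, 335 to 480.0 without). Ccl3 and Socs3 were also highest, and Apoe, Ccl5 and the bridging protein Mfge8 lowest, on the VD3+TNFa pair.

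**Figure D4:**
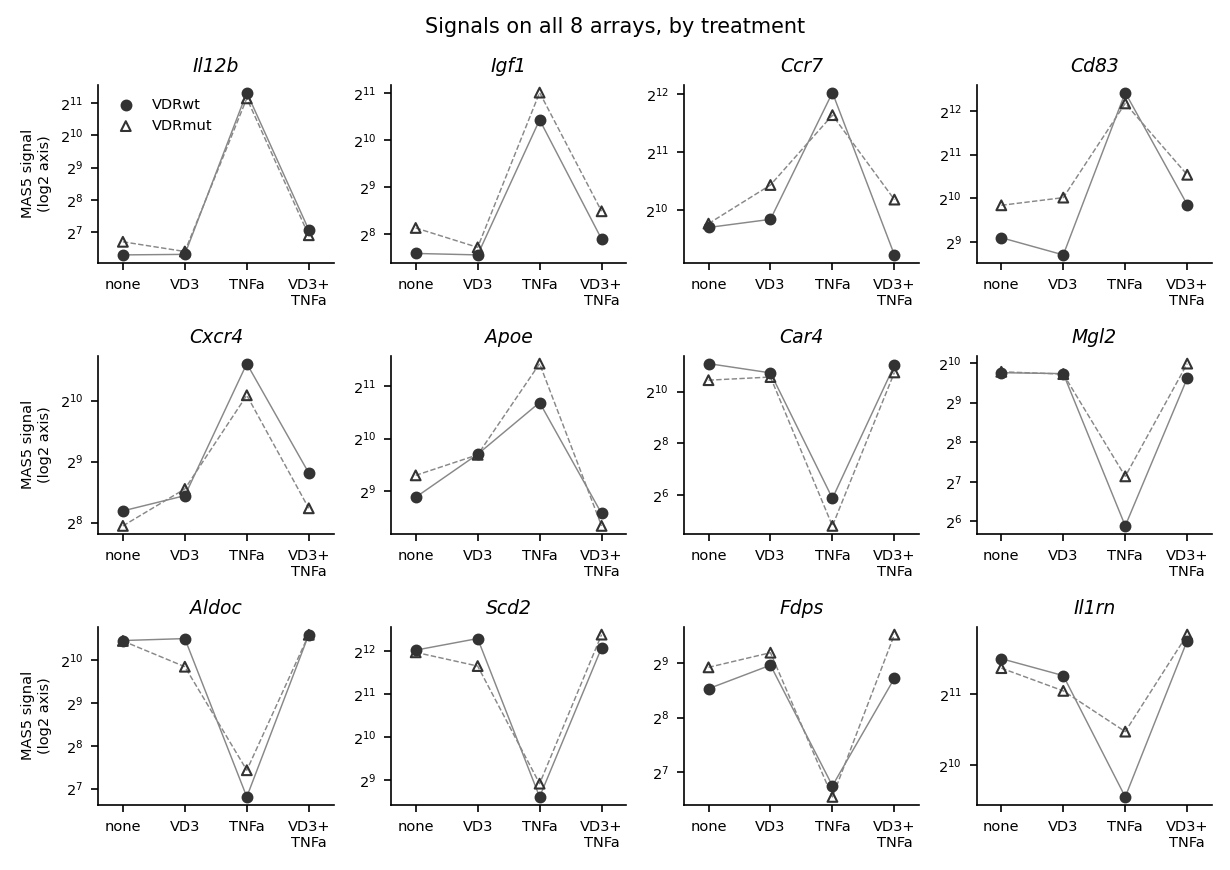
MAS5 signal (log2 axis) of 12 called genes on all 8 arrays by treatment, in VDRwt (filled circles, solid line) and VDRmut (open triangles, dashed line), 1 array a point. In the upper genes (Il12b to Apoe) the TNFa arrays are the highest, in the others the lowest; the VD3+TNFa arrays lie near those without TNFa in most, while in Apoe they are the lowest and in Aldoc and Il1rn the highest.

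The genotypes shared the direction of change across the array. Over 12832 probe sets the change in VDRwt and that in VDRmut correlated with a Pearson r of 0.566 (Spearman 0.529), against 0.099 (0.16) for VD3 without TNFa. Probe sets are not independent replicates, and the changes of a genotype share no array with those of the other. By size alone, with no test, 988 genes exceeded 2-fold in VDRwt (13% of tested genes) and 906 in VDRmut (12%). Of these, 402 did so in the same direction in both (5.3%), 162 higher (2.14%) and 240 lower (3.17%), and 15 in opposite directions (0.198%). Genes past 2-fold in VDRwt and under a log2 size of 0.5 in VDRmut numbered 246 (3.25%), 130 higher (1.72%) and 116 lower (1.53%). The reverse class, VDRmut only, held 221 (2.92%), 81 higher (1.07%) and 140 lower (1.85%), so the class of the genotype with an intact receptor was about the size of the other.

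A test of the difference between genotypes called 0 of 12832 probe sets (0%), with 563 at an unadjusted p under 0.05 and a smallest adjusted p of 0.164. That fit has 1 residual degree of freedom. Its residual comes from the genotype difference between untreated and VD3 arrays, which a receptor-dependent VD3 effect would enlarge. The lack of calls is thus no evidence that the genotypes responded alike. The smallest p-values among genes belonged to Klk1b1, Gpr35 and Ly6i. Ly6i, of the Ly6 surface proteins, read 89.9 (Absent) and 398 with TNFa and 1521 and 857 with VD3+TNFa, so its log2 rise was 4.08 in VDRwt and 1.10 in VDRmut. Klk1b1, which has close relatives that may share its probes, read 11.2 (Absent) and 114 with TNFa and 543 and 361 with VD3+TNFa. In both genes the VDRmut TNFa array was the higher of the TNFa arrays, and the VD3+TNFa arrays differed less. None of the changes described next as being of VDRwt only is therefore shown to differ between the genotypes.

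Among the 246 genes of VDRwt only, the 10 highest were led by Gpr35, a receptor for tryptophan metabolites, which read 6.0 (Absent) and 77.6 (Absent) with TNFa and 137 and 76.2 with VD3+TNFa. The VDRwt TNFa array was the lowest of the 4. Rgcc, a regulator of the cell cycle, read 218 and 379.7 with TNFa and 1497 and 536 with VD3+TNFa, with the VDRwt VD3+TNFa array above the other 3. Pglyrp1, a bactericidal protein of neutrophil granules, read 34.1 (Absent) and 185 with TNFa and 203 and 196 with VD3+TNFa, and the heparan sulfate proteoglycan Sdc1 145 and 221 with TNFa, 540.3 and 169.6 with VD3+TNFa. The metalloproteinase Mmp19 (75.9 and 125 with TNFa, 314 and 88.6 with VD3+TNFa), the glycogen branching enzyme Gbe1, the histamine-degrading Hnmt, Slfn3, Cntn4 and Rtp4 made up the 10, with VDRwt log2 changes of 1.83 to 4.51. Slfn3 and Cntn4 had signals under 50 on all 4 arrays. Rtp4, a chaperone of receptors induced by interferon, came nearest to a call over both genotypes (adjusted p = 0.0786).

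The 10 lowest of VDRwt only included the death receptor Fas, which read 1039 and 438 with TNFa and 239.9 and 373 with VD3+TNFa (-2.11 in VDRwt and -0.23 in VDRmut). In this gene the VDRwt TNFa array stood above the other 3. The actin-binding Cnn2 (1587 and 1026 with TNFa, 448 and 864 with VD3+TNFa), the inositol phosphatase Inpp5b (1237 and 673 with TNFa, 321 and 630.3 with VD3+TNFa) and the GTP-binding Gtpbp1 (314 and 193 with TNFa, 33.1 (Absent) and 138 (Absent) with VD3+TNFa) had the same order. The basophil protease Mcpt8 read 504 and 227 with TNFa and 97.0 (Absent) and 167 (Marginal) with VD3+TNFa, and the dynein partner Nde1 144 and 165 with TNFa, 27.7 and 128 with VD3+TNFa. Psd3, Cenpe, Snx11 and the transcription factor Hlx were the others, with VDRwt log2 changes of -2.17 to -1.99. Without TNFa, VD3 against untreated VDRwt cells gave the same sign in 137 of the 246 genes (55.7%), against 49.9% of all tested genes, and 3 of the 246 (1.2%) exceeded 2-fold in that direction, against 1.6%. From the gene lists the class held the macrophage marker Adgre1, the neutrophil genes S100a8 and Csf3r, Mcpt8, Fas, the phosphofructokinase Pfkl, Hk2 and P4ha1, the receptors Fcgr2b and Tlr2, and Nfkb2, Nfkbib, Ebi3, Il1b, Cxcl10, Socs2, Il1r2, Stab1, Ifit3, Ddit3 and Hmox1.

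**Figure D5:**
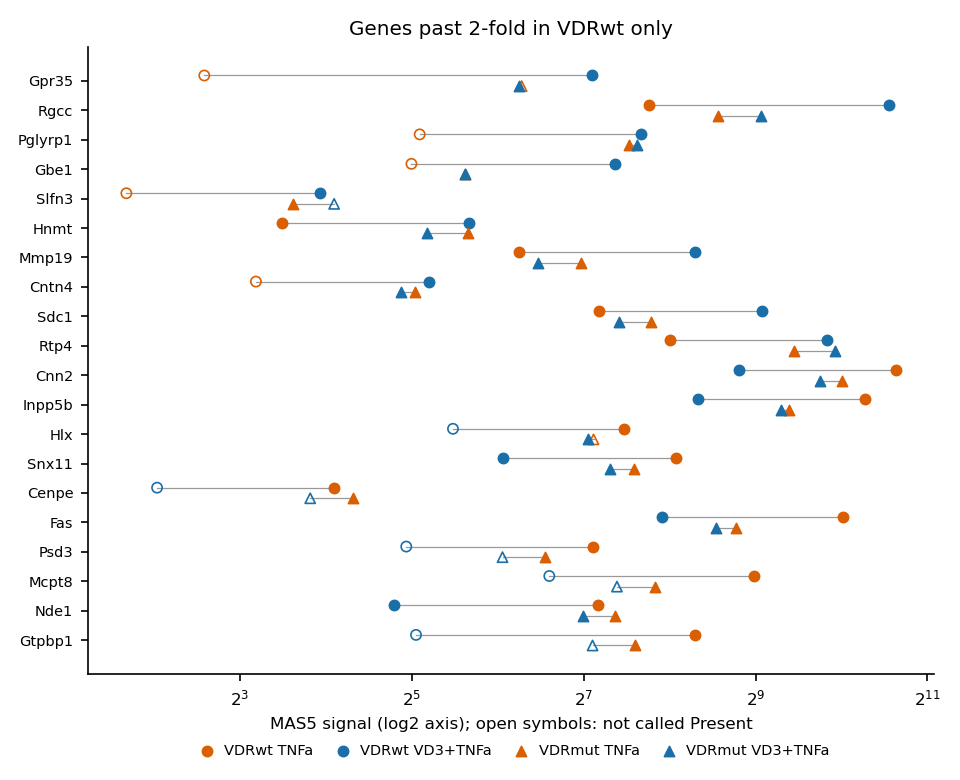
MAS5 signal (log2 axis) on the 4 arrays for the 10 highest and 10 lowest changes of VDRwt only, with symbols as for the extreme genes (circles VDRwt, triangles VDRmut, orange TNFa, blue VD3+TNFa, open where not called Present). The VDRmut symbols of a gene lie close together, while the VDRwt symbols are over 2-fold apart, as in Rgcc (218 and 1497).

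Of VDRmut only, the highest were Depdc1a, the kinase Riok2, the spindle protein Nusap1 and Pls1, an actin bundler, and the lowest Gdap10, the drug transporter Abcb1a, Krtap19-1 and the transcription factor Trps1. Nusap1 read 112 and 122 with TNFa and 148 and 499 with VD3+TNFa, with the VDRmut VD3+TNFa array the highest of the 4. Gdap10 read 448 and 654 with TNFa and 445 and 12 (Absent) with VD3+TNFa, and Trps1 325 and 388 with TNFa, 241 and 39.2 with VD3+TNFa. On the untreated VDRmut array, also of low actin ratio, these 2 read 50.7 and 56.6, and on the VDRmut VD3 array 301 and 187. Over the 140 genes lower in VDRmut only, the median log2 change was -1.32 with TNFa and 0.44 for VD3 against untreated VDRmut cells without TNFa, where the array of low actin ratio is on the other side of the comparison. The part of RNA integrity in these changes was not tested.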

How the data were processed

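Per the file headers, the deposited values are Signal intensities and detection calls (Present, Marginal or Absent) for each probe set of the array, and the submitters' processing notes name MAS5, with no version. The intensities are on a linear scale, and the authors' 8 arrays had equal trimmed means to within rounding. Each array was rescaled to a common 2% trimmed mean of 200.1, signals of 0 were raised to 0.1, and log2 was taken. Leaving control probe sets aside, a probe set was tested if Present on at least 2 of the 8 arrays. The labels give 1 array for each genotype and treatment.

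The main model was fitted in limma 3.58.1 (R 4.3.3) on all 8 arrays, with treatment and genotype as terms, a mean-variance trend and Benjamini-Hochberg adjustment over 12832 probe sets. A model with the pairwise genotype difference was fitted for that comparison. Size classes (log2 size of at least 1) rest on 1 array pair per genotype and have no test. The brightest probe set stands for a gene.

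On simulated data with known changes, the fit for VD3 in TNFa-treated cells recovered 31% of changes of log2 size 1. It recovered 94% of size 2 and 96% of size 4, with 13 false calls among 12832 probe sets. The simulation describes the fit under simulated noise. It does not measure false calls in the data, where the treatments also differed in ribosomal control signal and actin ratio. In the data 894 calls became 104 without the VDRmut VD3+TNFa array. The number of arrays limits the precision.

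The comparison and the gene lists were chosen with earlier results of these data known. Genes named are the 15 highest and 15 lowest called changes with 1 direction and Present calls on the brighter arrays, the 10 highest and 10 lowest of VDRwt only, 4 each of VDRmut only, the vitamin D response list, up to 4 members of each list by p, and 3 genes by the p of the genotype difference. List members named beyond these, including all other called members, were chosen after their values were seen. A list is described by its counts and median beside those of all genes. Alternatives changed the floor, normalization, filter, error model, arrays and scan-day block. Probe sets with several or no gene symbols are not named.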

Additional observations from a re-analysis of the deposited data

Results flagged for a closer look

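The 18S control, which lies outside the gene comparisons, was above both untreated arrays on all 4 arrays with TNFa and also on both arrays with VD3 alone. Its 5′ probe set read 9028.2 (VDRwt) and 6847.0 (VDRmut) with TNFa and 224.0 and 58.2 with VD3+TNFa, against 21.1 and 3.5 untreated and 72.6 and 32.7 with VD3 alone. Its 3′ probe set read 8510.7, 7128.9, 1121.3 and 227.3 in the same order, against 50.5 and 62.8 untreated and 183.9 and 99.3 with VD3 alone. Its part in the changes of genes was not tested.

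Genes past 2-fold in opposite directions in the genotypes numbered 15, each with 1 array pair per genotype. The prostaglandin synthase Ptgs2 read 99.3 with TNFa and 227 with VD3+TNFa in VDRwt, and 90.9 and 44.6 in VDRmut. Inhba, the activin A chain, read 535 and 1257 in VDRwt and 415 and 194 in VDRmut. The water and glycerol channel Aqp9 ran the other way, at 435 and 193 in VDRwt and 219 and 452 in VDRmut. None of the 15 passed the test of the genotype difference, with a smallest adjusted p of 0.502 (Ms4a4c) in limma, and these genes were named after their values were seen.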

How the results depend on the processing

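Each genotype and treatment has 1 array, the other 4 arrays enter the calls through the residual variance, and low signals limit folds. The 894 probe sets called numbered 96 when signals under 50 were raised to 50, 578 of 22626 with no filter on Present calls and 418 with limma without a mean-variance trend. Leaving out 1 array at a time gave 104 to 1176. The lowest counts came without the VDRmut VD3+TNFa (104), VDRwt TNFa (141) and VDRwt VD3+TNFa (188) arrays, where a treatment is left with 1 array assumed to vary like the others; the highest came without the VDRwt (1176) or VDRmut (1136) untreated array. With the floor of 50, 2835 probe sets had an unadjusted p under 0.05, against 2918 in the main fit. The prior degrees of freedom, which limma draws from all probe sets, were 1.13 against 6.03. Egln3 and Apoe, with no signal under 50, kept log2 changes of 3.94 and -2.59 and lost their calls. Aldoc and Il12b, also never under 50, kept theirs. The cause of these shifts was not tested. Quantile normalization (936), the authors' series matrix values (894) and another Present filter (926) stayed within 1.5 times. So did the 4 arrays with TNFa alone (1095, with 1 residual degree of freedom) and scan day as a block (750). Leaving out both VDRmut arrays of low actin ratio did as well, in a fit with 1 VD3+TNFa array and 1 residual degree of freedom. By size, the 753 probe sets shared by both genotypes numbered 271 at a log2 size of 1.5. The 424 of VDRwt only numbered 97 at that size and 186 with a VDRmut size under 0.25. The reverse class, VDRmut only, held 453 probe sets, 140 at a log2 size of 1.5 and 237 with a VDRwt size under 0.25. The genotype difference gave 0 calls in limma under each alternative run, with 390 to 941 probe sets at an unadjusted p under 0.05. No named gene called in the main fit or in the alternative changed direction between the 2. Uncalled changes could do so, as in Cyp24a1, with log2 -0.40 in the main fit and 0.54 with both VDRmut arrays of low actin ratio left out. Among alternative values of named genes, 2250 kept their side of the threshold, 350 no longer passed and 50 newly passed. Genotype is a term of the main fit, so its log2 change is the difference within each genotype, averaged over both. The labels carry no replicate numbers by which arrays could be paired further.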
